A study of Mus musculus with 8 samples.

Results

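The genes described here encode the machinery that carries nuclear-encoded proteins into mitochondria and the chaperones and proteases that receive them. A gene was included if its mouse symbol starts with Tomm or Timm, or if it was Hspd1, Hspe1, Hspa9, Pmpca, Pmpcb, Grpel1, Dnaja3, Lonp1, Clpp, Clpx, Samm50, Chchd4, Pam16 or Dnajc19, was not a pseudogene, and had at least 40 reads over all 8 libraries. This rule took 36 of the 54532 genes in the tables. Of the 36 genes, 35 passed the filter on low counts and were tested, and the exception was Timm23. Below the limit of 40 reads were Tomm6os with 9 reads, Timm8a1 with 4, Tomm6 with 2, and Tomm20l and Timm8a2 with 0, while the lowest members were Timm23 with 43 reads and Pam16 with 75.

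RNA came from the quadriceps of chow-fed mice aged 3 months and was read by 3′ mRNA sequencing, in which each read marks the 3′ end of a polyadenylated transcript. The 4 MckCre Gpcpd1 libraries, called knockouts here, came from mice with both Gpcpd1 alleles floxed and a Cre transgene driven by the muscle creatine kinase promoter. The 4 Control libraries came from mice with the same floxed alleles and no Cre, so loss of Gpcpd1 and presence of Cre cannot be told apart. Other cells of the muscle keep Gpcpd1 in this design, and in a tissue extract a change in the share of a cell type and a change of RNA per cell cannot be told apart. The labels do not say that each library came from a different mouse, so the tests cover the variation among libraries, which may be technical.

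Nearly all mitochondrial proteins are made in the cytosol. They cross the outer membrane through the TOM complex, and those with an N-terminal presequence then cross the inner membrane through TIM23, pulled by a motor built around the matrix HSP70. Small TIM chaperones hand carrier proteins to TIM22, a disulfide relay traps small cysteine-rich proteins in the intermembrane space, and in the matrix a peptidase removes presequences while HSP60 and HSP10 fold the arriving chains. In skeletal muscle this machinery supplies the mitochondria that make most of the ATP for sustained work.

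Library totals ran from 4806806 to 5405999 reads in knockouts and from 4404116 to 5183079 in controls. The targeted gene, Gpcpd1, stood at 35.1 ± 3.45 CPM (TMM-scaled reads relative to library size) in knockouts and 149.7 ± 10.7 CPM in controls (SD, n = 4 each), and its reads can lie outside the deleted part. Of 5 muscle fibre markers 2 rose, Acta1 and Mb (log2 fold changes 0.26 and 0.87), and 1 fell, Myh4 (-0.31). Their summed levels, which hide these opposite moves, were 120060 to 127130 CPM in knockouts and 111740 to 128060 CPM in controls. Among macrophage markers 2 of 4 tested fell, Csf1r and C1qb, and among fibro-adipogenic markers 1 of 5, Dcn, with no marker of either list called higher. Of the other fibro-adipogenic markers, Pdgfra had a log2 fold change of -0.46, Col3a1 and Lum -0.06 each, and Col1a1 0.07. Macrophage sums were 37.1 to 59.5 CPM in knockouts and 45.4 to 80.3 CPM in controls, which overlap. Fibro-adipogenic sums also overlapped, at 352.2 to 435.9 CPM in knockouts and 426.0 to 525.5 CPM in controls. Most of the latter came from Dcn, with means of 307.0 CPM in knockouts and 370.3 CPM in controls. No marker of any list was at 0 in all libraries. Of the endothelial, adipocyte, red blood cell, Schwann, satellite and tendon cell markers, those tested by edgeR gave 0 calls, with 0 at an unadjusted p of 0.05. Slow fibre markers were low and uneven, with sums of 4.01 to 34.6 CPM in knockouts and 1.29 to 10.1 CPM in controls. The part of these shifts in the results below was not tested.

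The promoter sequences are given first because they show which members share upstream elements. Promoters from RefSeq (GRCm38.p6, 250 bases before to 50 after a gene's start) were found for 32 of the 36 members, and not for Tomm40l, Tomm7, Timm21 and Hspa9. Short motifs were searched on both strands. A gene was counted if any of its listed promoters held the motif. The ETS motif bound by GABPA (CCGGAAG), a factor known to serve many mitochondrial genes, was found for 16 of 32 members (50%). It was found for 21.3% of the 8188 tested genes with a promoter. Counted by promoter and not by gene, it stood in 8.86% of all 32851. Hspd1 and Hspe1 share much of 1 window and both count among the 16. The ETS motif was found for 3 of the 5 members with a promoter that rose with genotype, and for 13 of the 27 others. The promoters of those 3 are shown next with the motif in capitals.
Grpel1, chr5:36464965-36465184, plus strand: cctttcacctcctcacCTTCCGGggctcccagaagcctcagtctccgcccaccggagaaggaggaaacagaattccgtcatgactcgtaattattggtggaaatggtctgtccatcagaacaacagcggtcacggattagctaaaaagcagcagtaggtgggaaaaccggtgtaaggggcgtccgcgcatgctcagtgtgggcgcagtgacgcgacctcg
Pmpca, chr2:26389128-26389347, plus strand: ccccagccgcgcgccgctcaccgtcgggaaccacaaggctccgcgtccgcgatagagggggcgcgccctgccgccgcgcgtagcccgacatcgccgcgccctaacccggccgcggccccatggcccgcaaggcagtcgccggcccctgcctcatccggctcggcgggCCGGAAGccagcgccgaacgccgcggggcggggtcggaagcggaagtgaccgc
Timmdc1, chr16:38522664-38522883, minus strand: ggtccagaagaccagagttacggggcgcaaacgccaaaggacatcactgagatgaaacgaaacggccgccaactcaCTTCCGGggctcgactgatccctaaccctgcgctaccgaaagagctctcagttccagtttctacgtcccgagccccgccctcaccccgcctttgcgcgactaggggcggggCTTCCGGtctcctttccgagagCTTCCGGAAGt
Each line ends at the base before the RefSeq start. In Timmdc1 the last match holds the motif on both strands, so that its copies overlap. The promoters of Timm17a and Dnajc19, the other 2 members that rose and have a promoter in the table, held no match.

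Hspd1 and Hspe1, the HSP60 chaperonin and its HSP10 lid, lie head to head. The 215 bases between the RefSeq start of Hspe1 and a listed start of Hspd1 are shown because both genes are read from them.
Hspd1-Hspe1, chr1:55087933-55088147, plus strand: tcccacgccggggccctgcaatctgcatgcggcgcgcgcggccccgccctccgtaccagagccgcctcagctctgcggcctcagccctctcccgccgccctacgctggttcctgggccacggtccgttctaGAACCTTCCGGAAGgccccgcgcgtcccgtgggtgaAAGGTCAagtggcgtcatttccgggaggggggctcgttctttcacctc
The first capitals hold a heat shock motif (GAANNTTC) that overlaps the ETS motif on both strands, and the second the element of the oestrogen-related receptors (AAGGTCA). Counted by gene as above, the heat shock motif was found for 3 of 32 members (9.38%) and 6.72% of tested genes with a promoter. The receptor element was found for 5 of 32 (15.6%) and 3.86%. Hspd1 and Hspe1, which share the window above, both count for the heat shock motif and for the receptor element. Neither motif was found for any of the 5 members with a promoter that rose. The motif of the nuclear respiratory factor NRF1 was in 6 of 32 (18.8%) and in 12.4%, and in none of the 5 members that rose. The cyclic AMP response motif (TGACGTCA) and the motif of CHOP and ATF factors (TGATGNAA) were in none of the 32, against 3.70% and 2.67% of tested genes with a promoter. These matches describe letters in a window and not bound sites.

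Across the module, 6 of the 35 tested genes rose in knockout muscle and 0 fell, with p-values from edgeR's quasi-likelihood test adjusted over all tested genes and a threshold of 0.05. Timm17a, a channel subunit of TIM23, Grpel1, Hspa9 and Dnajc19 of the import motor, Pmpca, a subunit of the presequence peptidase, and Timmdc1 made up the 6, with rises of 20.0% to 51.1%. The share of members higher was 17.1%, against 8.87% of all 10691 tested genes, and the share lower was 0, against 6.8%. In either direction 17.1% of members and 15.7% of all genes were called, a share near the background. At an unadjusted p of 0.05, 9 members were higher and 1 lower, which is 28.6% of the members against 28.1% of all tested genes (1625 higher and 1384 lower), again a share near the background. By DESeq2 or limma voom 0 members fell. The median log2 fold change was 0.09 over the members and 0.01 over all tested genes, and 22 members lay above 0 and 13 below.

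The 6 calls were not equally firm. Timm17a and Pmpca kept theirs in each of the 17 alternative analyses. The count of members higher was 3 without knockout 4, 3 without control 3 and 3 without control 4. In 6 members the knockouts all lay above the controls (17.1%, against 10.3% of tested genes), and in 0 all below (against 8.92%), or 17.1% against 19.2% in either direction.

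**Figure D1:**
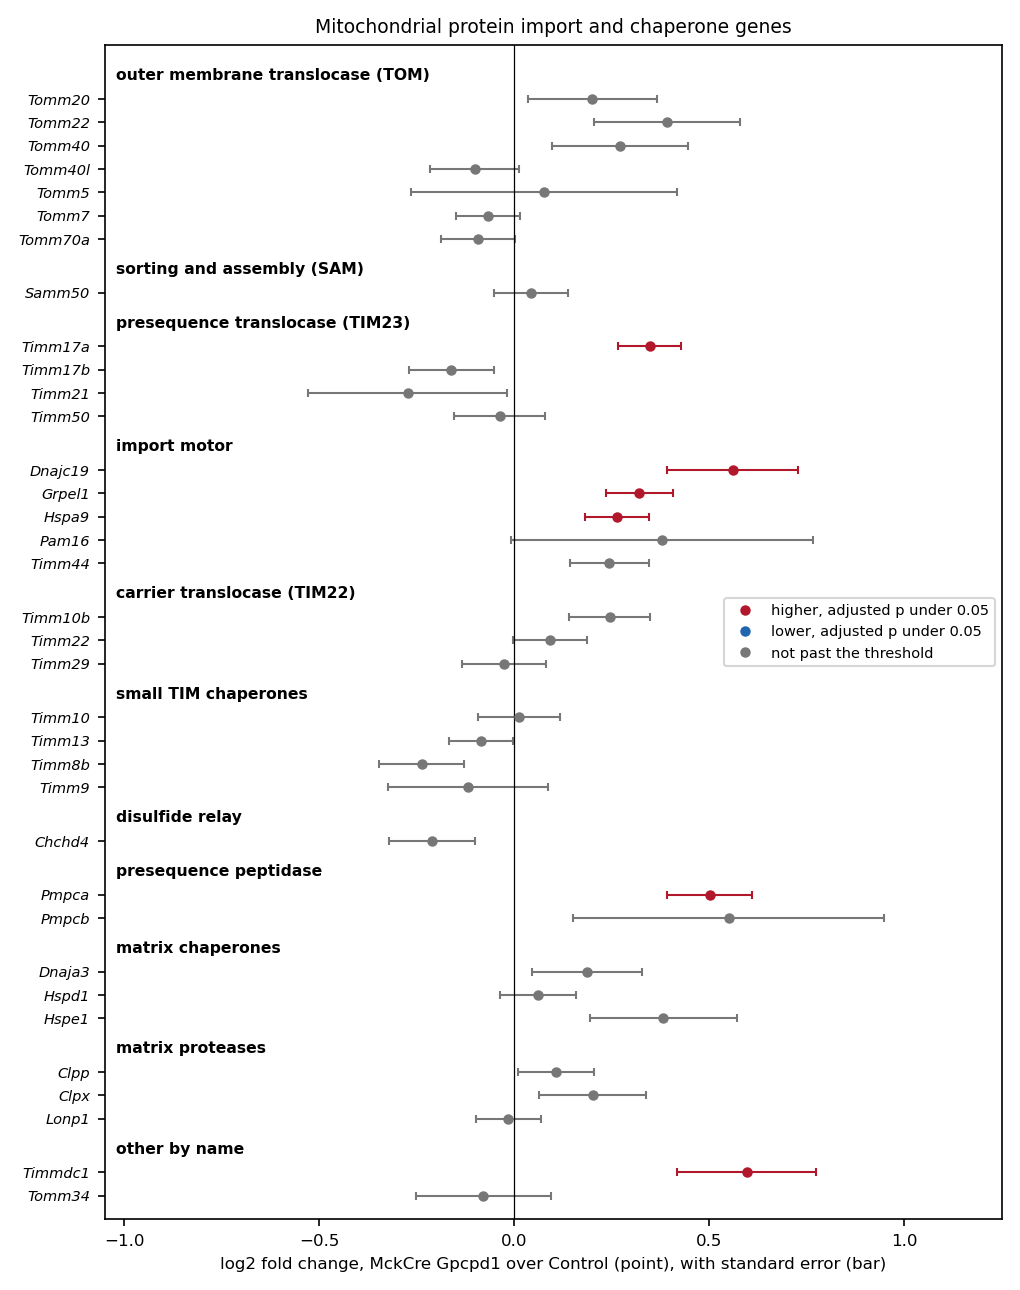
Log2 fold change of MckCre Gpcpd1 over Control for the 35 tested members, grouped by role; points are edgeR estimates, bars their standard errors, and red points passed an adjusted p of 0.05. The red points lie in the presequence translocase, the import motor, the presequence peptidase and Timmdc1, and no blue point appears.

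The import motor had the most members called of any role, 3 of 5 higher and 0 lower. The share higher was 60%, against 8.87% of all tested genes, and the share lower 0, against 6.8%. This role was singled out after the calls were seen, and its share rests on 5 genes. Hspa9 and Dnajc19 both lost their calls without knockout 4, and again without control 4. Roles held 1 to 7 tested members, too few for 0 calls in a role to be told from the background share. Among the 48 further genes described below, 4 were listed with the presequence translocase and motor (Romo1, Dnajc15, Grpel2 and Hscb). Of them, Hscb is a co-chaperone of iron-sulfur cluster delivery and not a part of the translocase or motor. Of these 4 genes, 0 were called. Hspa9 (ENSMUSG00000024359, GRCm38 chromosome 18, 34937414 to 34954357, minus strand) encodes mortalin, the matrix HSP70 that pulls precursors inward. Hspa9 had 328.3, 356.3, 319.0 and 367.6 CPM in knockouts 1 to 4, against 303.9, 288.2, 277.8 and 272.4 CPM in controls 1 to 4. The groups did not overlap, and control 1 lay closest to the knockouts. Its log2 fold change was 0.26 (SE 0.08, edgeR adjusted p = 0.0276), and the call ended without knockout 2 (adjusted p = 0.0863), knockout 4 (0.128), control 3 (0.103) or control 4 (0.0708), and with no filter on low counts (0.0611).

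Grpel1 (ENSMUSG00000029198, chromosome 5, 36464998 to 36474080, plus strand) encodes the nucleotide exchange factor that resets mortalin. Grpel1 had 77.1, 77.5, 74.3 and 76.4 CPM in knockouts 1 to 4, against 61.6, 64.9, 58.7 and 59.3 CPM in controls 1 to 4. The knockouts lay close together and all above the controls, with a log2 fold change of 0.32 (SE 0.09, edgeR adjusted p = 0.0108), and the adjusted p was 0.0541 without control 3. The spread among knockouts was 1.86% of their mean, the smallest of the 36 members. At 358 to 406 reads a knockout library, this is narrower than counting error alone would give. Of its 3528 exon bases, 411 lie opposite exons of Tada2b, which fell to 9.92 CPM in knockouts, against 13.8 CPM in controls (log2 fold change -0.47, SE 0.16, edgeR adjusted p = 0.0477). Grpel2, its paralog, had a log2 fold change of 0.12 (SE 0.19).

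Dnajc19 (ENSMUSG00000027679, chromosome 3, 34056020 to 34081321, minus strand) encodes the J-domain protein that stimulates mortalin at the channel, and its loss in humans causes a cardiomyopathy with ataxia. Dnajc19 had 13.4, 18.3, 20.995 and 23.9 CPM in knockouts 1 to 4, against 13.1, 13.4, 15.1 and 10.3 CPM in controls 1 to 4. Knockout 1 lay among the controls and the other knockouts above them. The log2 fold change was 0.56 (SE 0.17, edgeR adjusted p = 0.0226), and the call ended without knockout 3 (adjusted p = 0.0729), knockout 4 (0.123) or control 4 (0.0797). Dnajc15, its paralog, had a log2 fold change of -0.05 (SE 0.10).

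Timm44, the inner membrane anchor of mortalin, had 47.8, 50.8, 46.3 and 52.7 CPM in knockouts 1 to 4, against 45.2, 39.9, 45.2 and 36.4 CPM in controls 1 to 4. Its groups did not overlap, yet it did not pass the test (log2 fold change 0.24, SE 0.10, edgeR adjusted p = 0.110). Pam16, a regulator of the J-domain protein, had a log2 fold change of 0.38 (SE 0.39) on 75 reads. Its last 300 transcript bases share 95.6% of their 50-base words with Gm9803, so its reads cannot be assigned with certainty.

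In the TIM23 channel 1 of 4 tested members rose (25%, against 8.87% of all tested genes) and 0 fell (against 6.8%). These 4 genes are too few to tell such shares from the background. Timm17a (ENSMUSG00000062580, chromosome 1, 135295213 to 135313778, minus strand) had 111.0, 117.1, 115.2 and 119.9 CPM in knockouts 1 to 4, against 94.98, 91.0, 88.3 and 90.0 CPM in controls 1 to 4. Every knockout lay above every control, and the gap between the groups was wider than the spread within either. The log2 fold change was 0.35 (SE 0.08, edgeR adjusted p = 0.0041), with a range of 0.31 to 0.37 over the 17 alternatives and adjusted p-values of 0.0032 to 0.0238.

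Timm17b, the X-linked paralog that builds a separate form of the channel, did not move with it (log2 fold change -0.16, SE 0.11, edgeR adjusted p = 0.361). The ratio of Timm17a to Timm17b reads within a library, which no scaling can change, was 2.56, 2.71, 2.88 and 2.96 in knockouts 1 to 4, against 1.995, 1.63, 1.97 and 2.34 in controls 1 to 4. The ratios did not overlap, and an exact two-sided permutation test gave p = 0.0286, the smallest this design allows, and 0.133 after adjustment over the 7 ratios computed. All 7 pairs were chosen with their values in view, and 0 passed the adjusted threshold. The other ratios were Tomm40 to Tomm40l (exact p = 0.0571), Hspa9 to Hspd1 (exact p = 0.0571), Dnajc19 to Dnajc15 (exact p = 0.143), Hspe1 to Hspd1 (exact p = 0.343), Grpel1 to Grpel2 (exact p = 0.343) and Pmpca to Pmpcb (exact p = 0.971).

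Timm50, the receptor that meets presequences on the inner side, had 25.3, 27.9, 23.8 and 31.4 CPM in knockouts 1 to 4, against 27.1, 29.2, 27.6 and 27.1 CPM in controls 1 to 4. The groups overlapped, with a log2 fold change of -0.04 (SE 0.12). Timm21, which links TIM23 to the respiratory chain, had a log2 fold change of -0.27 (SE 0.26). Timm23, for which the complex is named, had 2.09, 0.764, 1.30 and 0.853 CPM in knockouts 1 to 4, against 0.646, 1.01, 1.37 and 0.631 CPM in controls 1 to 4. It had between 3 and 10 reads a library and was untested. Its 3′ end shares 95.7% of its 50-base words with the annotated gene Gm10273, which had 0 reads, so the true Timm23 level cannot be read from these counts.

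**Figure D2:**
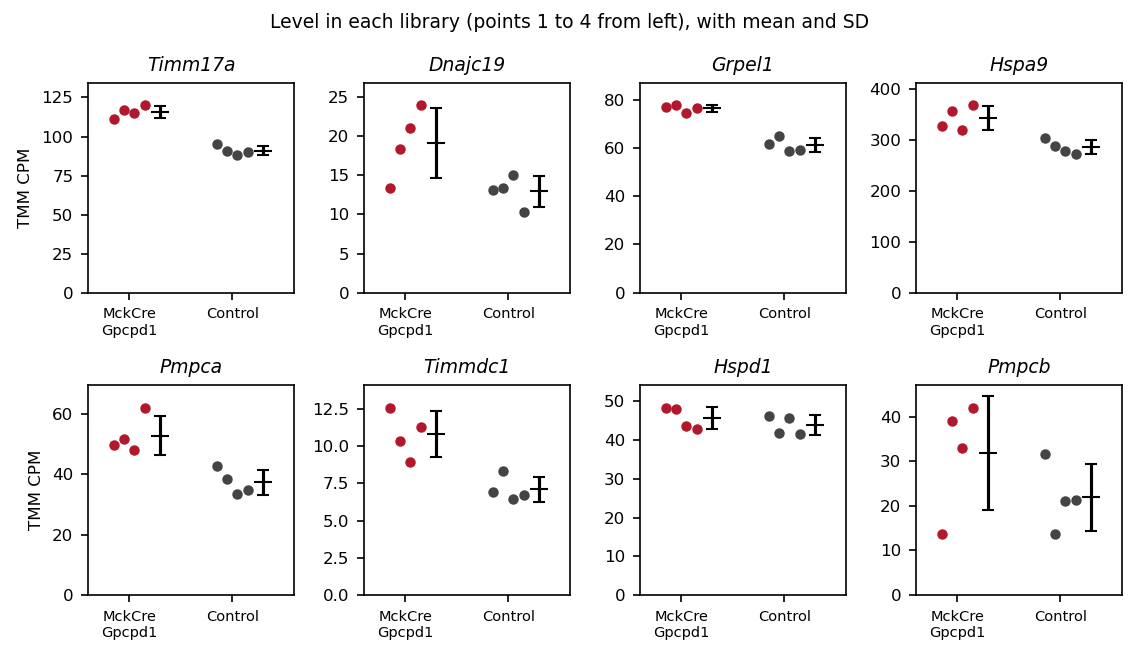
TMM-scaled CPM in each library for the 6 members that rose and, for contrast, Hspd1 and Pmpcb, with knockouts left of controls; points are libraries 1 to 4 from left, and bars the mean and SD. Timm17a, Grpel1, Hspa9, Pmpca and Timmdc1 show separate groups, Dnajc19 overlaps at knockout 1, and Pmpcb is low in knockout 1 and control 2.

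The mitochondrial processing peptidase cuts presequences off in the matrix and is a dimer of Pmpca and Pmpcb. Pmpca (ENSMUSG00000026926, chromosome 2, 26389339 to 26397122, plus strand) had 49.6, 51.8, 47.9 and 62.1 CPM in knockouts 1 to 4, against 42.6, 38.3, 33.5 and 34.9 CPM in controls 1 to 4. The groups did not overlap, and the log2 fold change was 0.50 (SE 0.11, edgeR adjusted p = 0.0020), with adjusted p-values up to 0.0189 over the alternatives. Of the 4282 exon bases of Pmpca, 874 lie opposite exons of Inpp5e, whose own level was 2.75 CPM in knockouts and 3.34 CPM in controls.

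Pmpcb, the catalytic subunit, had 13.6, 39.0, 33.1 and 42.0 CPM in knockouts 1 to 4, against 31.7, 13.6, 21.1 and 21.2 CPM in controls 1 to 4. A knockout and a control shared the lowest level, and the other 3 knockouts lay above every control. The log2 fold change of 0.55 was close to that of Pmpca, but its standard error of 0.40 was wider and it did not pass (edgeR adjusted p = 0.438). Without knockout 1 the log2 fold change of Pmpcb was 0.79 and it passed (adjusted p = 0.0222).

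Among the matrix chaperones 0 of 3 were called, with 0 at an unadjusted p of 0.05 and 0 by DESeq2 or limma voom. Hspd1 had 48.4, 48.1, 43.7 and 42.9 CPM in knockouts 1 to 4, against 46.3, 41.8, 45.8 and 41.6 CPM in controls 1 to 4. The groups overlapped in part, with knockouts 1 and 2 above every control and controls 2 and 4 below every knockout. The log2 fold change was 0.06 with an approximate 95% interval of -0.13 to 0.25. Hspe1 had 13.2, 12.8, 10.8 and 18.3 CPM in knockouts 1 to 4, against 11.8, 12.97, 7.24 and 10.1 CPM in controls 1 to 4. Knockout 4 was high and control 3 low, the rest overlapped, and the log2 fold change was 0.38 (SE 0.19, edgeR adjusted p = 0.186). Hspd1 shares 39.2% of the words of its 3′ end with the pseudogene Hspd1-ps3, which had 16 reads. Hspe1 shares 41% of such words with AC117239.2, annotated as protein-coding, so the counts of both genes are uncertain. Dnaja3, the J-domain partner of mortalin in folding, had a log2 fold change of 0.19 (SE 0.14).

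The matrix proteases Lonp1, Clpp and Clpx remove damaged or unassembled proteins, and 0 of 3 were called, again with 0 at an unadjusted p of 0.05 and 0 by the other tools. Lonp1 had 116.9, 130.8, 125.0 and 136.7 CPM in knockouts 1 to 4, against 134.6, 132.0, 129.6 and 118.5 CPM in controls 1 to 4. Its log2 fold change was -0.01 with an approximate 95% interval of -0.18 to 0.15, and the sign turned in 2 alternatives. Clpp had 53.6, 46.6, 51.8 and 45.9 CPM in knockouts 1 to 4, against 46.7, 50.1, 45.2 and 41.8 CPM in controls 1 to 4. Its groups overlapped, with a log2 fold change of 0.11 and an approximate 95% interval of -0.09 to 0.30. The unfoldase subunit Clpx had a log2 fold change of 0.20 (SE 0.14).

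At the outer membrane 0 of 7 tested TOM members were called, with 1 higher at an unadjusted p of 0.05 and 0 by DESeq2 or limma voom. Tomm20, the presequence receptor, had 12.4, 14.3, 10.0 and 11.5 CPM in knockouts 1 to 4, against 11.6, 11.6, 10.2 and 8.62 CPM in controls 1 to 4. Tomm70a, the receptor for carrier precursors brought by cytosolic chaperones, had 74.8, 87.8, 91.0 and 91.7 CPM in knockouts 1 to 4, against 99.7, 98.1, 91.6 and 79.2 CPM in controls 1 to 4. Both receptors overlapped between groups, with log2 fold changes of 0.20 (SE 0.17) and -0.09 (SE 0.10).

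Tomm22, the central receptor, had 10.9, 11.3, 11.7 and 15.4 CPM in knockouts 1 to 4, against 7.32, 7.09, 11.0 and 11.98 CPM in controls 1 to 4. Tomm40, the pore, had 11.7, 18.0, 16.7 and 19.8 CPM in knockouts 1 to 4, against 18.3, 11.8, 11.4 and 13.7 CPM in controls 1 to 4. Knockouts and controls overlapped in both genes, with control 1 among the highest libraries for Tomm40, and the log2 fold changes were 0.39 (SE 0.19, edgeR adjusted p = 0.172) and 0.27 (SE 0.17, adjusted p = 0.332). The other tested TOM members, Tomm5, Tomm7 and Tomm40l, lay between -0.10 and 0.08. Samm50, which inserts barrel proteins into the outer membrane, had 519.1 ± 46.1 CPM in knockouts and 504.0 ± 66.5 CPM in controls (SD, n = 4 each; log2 fold change 0.04, SE 0.09).

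**Figure D3:**
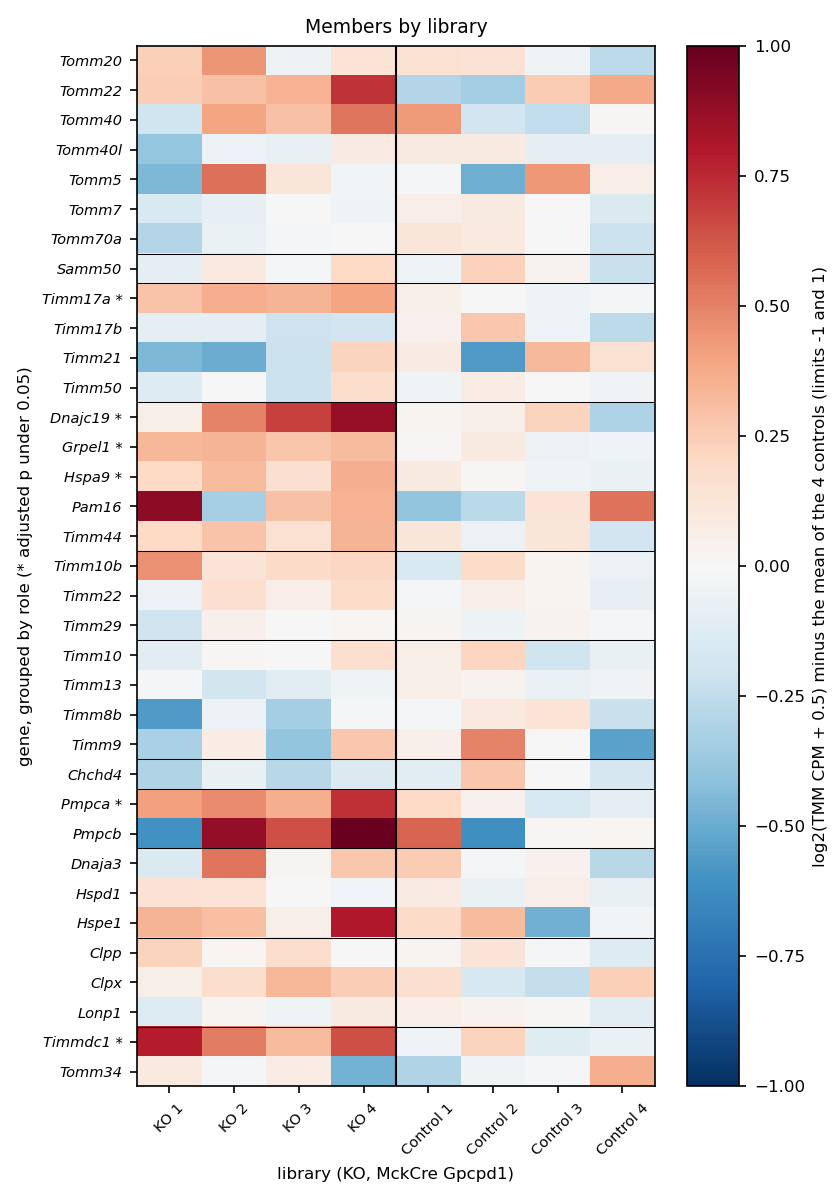
Level of each tested member in each library as log2(TMM CPM + 0.5) minus the mean of the 4 controls, with knockouts (KO) left of controls and members grouped by role; asterisks mark members past an adjusted p of 0.05. Grpel1, Hspa9, Timm17a and Pmpca are red in all 4 knockouts, and knockout 1 is blue for Pmpcb, Timm8b and Tomm40l.

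In the carrier pathway 0 of 3 TIM22 members and 0 of 4 tested small TIM chaperones were called, with 1 higher and 1 lower at an unadjusted p of 0.05 and 0 by DESeq2 or limma voom. Timm22, the carrier channel, had 47.6, 55.6, 51.8 and 56.3 CPM in knockouts 1 to 4, against 49.1, 51.9, 50.5 and 46.7 CPM in controls 1 to 4. Its groups overlapped (log2 fold change 0.09, SE 0.09). Timm10b and Timm29, its partners, had log2 fold changes of 0.24 (SE 0.10) and -0.03 (SE 0.11).

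The small TIM chaperones escort hydrophobic carriers through the intermembrane space. Timm8b, Timm9 and Timm13 lay at -0.24 (SE 0.11), -0.12 (SE 0.21) and -0.09 (SE 0.08), and Timm10, which pairs with Timm9, at 0.01 (SE 0.10), a sign that turned in 6 alternatives, library totals alone among them. None of the 4 passed the test, with adjusted p-values of 0.157 to 0.959. Chchd4, the oxidoreductase of the disulfide relay, had 34.6, 40.5, 35.1 and 38.6 CPM in knockouts 1 to 4, against 39.6, 51.7, 42.7 and 38.0 CPM in controls 1 to 4. Control 2 was the highest library, controls 1 and 4 lay among the knockouts, and the log2 fold change was -0.21 (SE 0.11, edgeR adjusted p = 0.218).

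The last 2 members carry the family name without a role in the translocases. Timmdc1 (ENSMUSG00000002846, chromosome 16, 38498347 to 38522663, minus strand) encodes an assembly factor of respiratory complex I. Timmdc1 had 12.6, 10.3, 8.92 and 11.3 CPM in knockouts 1 to 4, against 6.89, 8.31, 6.46 and 6.73 CPM in controls 1 to 4. The groups did not overlap, although knockout 3 and control 2 were close. The log2 fold change was 0.60 (SE 0.18, edgeR adjusted p = 0.0223), and the call ended by DESeq2 (adjusted p = 0.0649), without knockout 1 (0.0723), knockout 4 (0.0664), control 3 (0.0775) or control 4 (0.0538). Tomm34, a cytosolic co-chaperone, had a log2 fold change of -0.08 (SE 0.17).

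Between libraries, the median of the 6 members that rose, in log2 units, was 0.31, 0.42, 0.33 and 0.52 in knockouts 1 to 4, against 0.04, 0.05, -0.05 and -0.07 in controls 1 to 4, relative to the mean of the controls. That separation follows from how the 6 were picked. The median of the other 29 tested members was -0.11, 0.05, 0.00 and 0.17 in knockouts and 0.06, 0.07, 0.00 and -0.08 in controls, which overlap. Knockout 1 was the lowest library for these 29 and knockout 4 the highest. The summed level of all 36 members was 2475 ± 154.5 CPM in knockouts and 2348 ± 156.5 CPM in controls (SD, n = 4 each; exact two-sided permutation p = 0.343).

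Next, 48 further genes of import and mitochondrial quality control, listed by role, were read from the same fit. Of these, 6 were higher (12.5%) and 1 lower (2.08%), against 8.87% and 6.8% of all tested genes, and 41 did not pass. Of 8 genes listed with the disulfide relay, 2 rose (25%, against 8.87% of all tested genes) and 0 fell (against 6.8%). Gfer, the sulfhydryl oxidase that reoxidizes Chchd4, had 164.2, 163.7, 140.8 and 154.7 CPM in knockouts 1 to 4, against 96.7, 138.0, 117.1 and 106.8 CPM in controls 1 to 4. Every knockout lay above the highest control, if narrowly at control 2 (log2 fold change 0.44, SE 0.10, edgeR adjusted p = 0.0026). Cox19, a copper-handling factor and substrate of the relay, had 30.8, 29.6, 28.2 and 26.7 CPM in knockouts 1 to 4, against 21.3, 18.2, 17.4 and 20.4 CPM in controls 1 to 4 (log2 fold change 0.58, SE 0.12). With TMM scaling the 8 genes listed with the relay, which include substrates such as Cox19, lay between 0.02 and 0.58, with a median of 0.23. Chchd4, the oxidoreductase of the relay, lay below 0.

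Among presequence and stop-transfer peptidases 1 of 6 rose (16.7%, against 8.87% of all tested genes) and 0 fell (against 6.8%). Mipep, which trims a further stretch from some precursors after the Pmpca and Pmpcb dimer has cut, had 22.0, 21.6, 20.995 and 21.8 CPM in knockouts 1 to 4, against 15.7, 16.6, 14.1 and 13.9 CPM in controls 1 to 4. The groups did not overlap (log2 fold change 0.52, SE 0.13, edgeR adjusted p = 0.0061). The knockouts had 102 to 113 reads each, and their spread was narrower than counting error alone would give, so it is no measure for the gap. In inner membrane quality control 2 of 8 rose (25%, against 8.87% of all tested genes) and 0 fell (against 6.8%). Oma1, a stress-activated protease, had 48.4, 50.03, 46.6 and 46.5 CPM in knockouts 1 to 4, against 36.0, 32.2, 31.9 and 37.2 CPM in controls 1 to 4, without overlap (log2 fold change 0.48, SE 0.10, edgeR adjusted p = 0.0012). The prohibitin gene Phb had 49.4, 44.9, 45.5 and 46.3 CPM in knockouts 1 to 4, against 36.0, 42.8, 39.0 and 31.7 CPM in controls 1 to 4. Its call (log2 fold change 0.31, SE 0.10, edgeR adjusted p = 0.0415) was lost in 11 of 17 alternatives, DESeq2 and library totals alone among them.

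**Figure D4:**
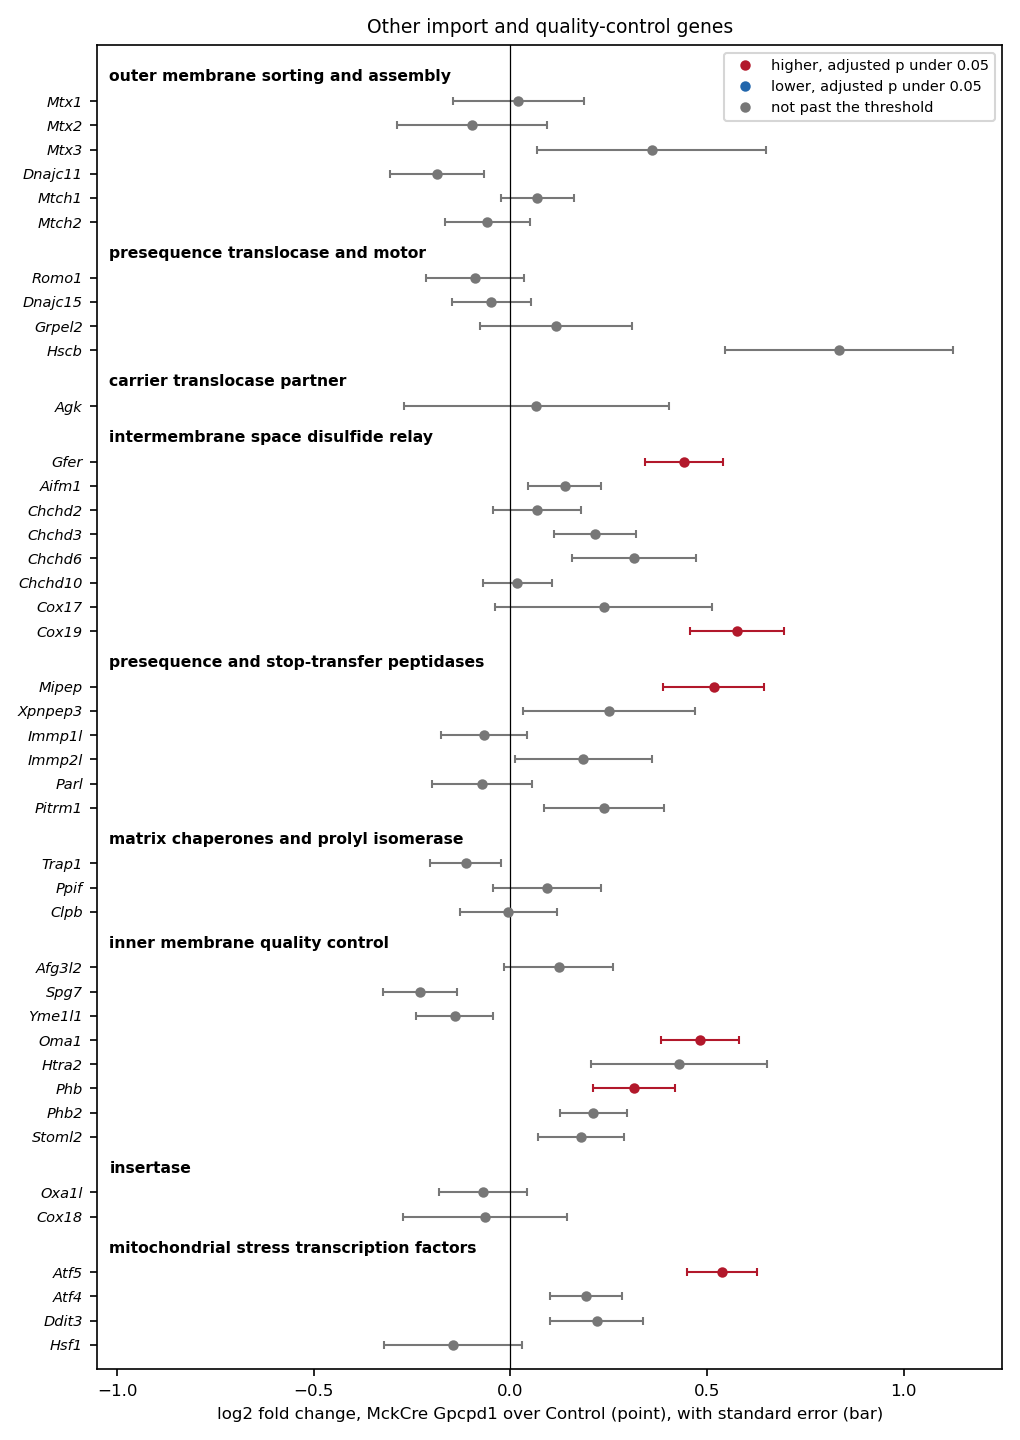
Log2 fold change of MckCre Gpcpd1 over Control for further genes of import and mitochondrial quality control, grouped by role, without the cytosolic factors; points are edgeR estimates, bars standard errors, and red points rose at an adjusted p of 0.05. Cox19, Mipep, Oma1, Gfer, Phb and Atf5 are red, and no point shown is blue.

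In the same list, 4 transcription factors tied to mitochondrial or protein-folding stress were included. Atf5, a factor of the mitochondrial unfolded protein response whose reported targets include Hspd1, Hspa9 and Lonp1, had 204.9, 179.9, 173.5 and 176.8 CPM in knockouts 1 to 4, against 122.6, 140.5, 128.8 and 114.1 CPM in controls 1 to 4 (log2 fold change 0.54, SE 0.09, edgeR adjusted p = 1.1e-04). The groups did not overlap. Atf4, Ddit3 and Hsf1 had log2 fold changes of 0.19 (SE 0.09), 0.22 (SE 0.12) and -0.15 (SE 0.18), with adjusted p-values of 0.166, 0.229 and 0.637, and Atf4 passed without control 2 (adjusted p = 0.0355).

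Of 7 nuclear genes listed for mitochondrial content, 2 rose (28.6%, against 8.87% of all tested genes) and 0 fell (against 6.8%). All 7 lay above 0, with a median log2 fold change of 0.22. At an unadjusted p of 0.05, 4 were higher (57.1%, against 28.1% of all tested genes in either direction). Their RNA levels do not measure content itself. The outer membrane channel gene Vdac3 had 52.3 ± 2.55 CPM in knockouts and 40.9 ± 2.69 CPM in controls (SD, n = 4 each), and Tfam, which packages mitochondrial DNA, had 31.8 ± 4.43 CPM in knockouts and 23.5 ± 3.65 CPM in controls. Mitochondrially encoded genes held 0.216% ± 0.044 of reads in knockouts and 0.264% ± 0.050 in controls (SD, n = 4 each; exact two-sided permutation p = 0.257). Whether the members that rose did so with mitochondrial content was not tested.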

How the data were processed

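Quadriceps RNA was measured in 8 QuantSeq 3′ libraries, 4 MckCre Gpcpd1 and 4 Control, grouped by the genotype labels and numbered in accession order. The deposited tables hold unnormalized counts of reads for 54532 Ensembl genes in each library, per the file headers. Bowtie2 2.3.4.1, Subread 1.6.2 with featureCounts, GRCm38 and mm10 are named in the submitters' processing notes. The annotation release, strand setting and treatment of multiply mapped reads were not stated there, so genes with close copies or overlapping partners have uncertain counts. Names and coordinates came from GENCODE M21 (GRCm38), which matched 54409 genes.

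Genotype was tested in R 4.3.3 with edgeR 4.0.16: filterByExpr (minimum count 10, minimum total 15; 10691 genes kept), TMM scaling, the robust quasi-likelihood test, and Benjamini-Hochberg adjustment over all tested genes at 0.05. SE is the log2 fold change over the square root of F, and approximate 95% intervals were derived from it. Single values were tested by exact permutation. A floor of 3 reads was 0.557 to 0.646 CPM, for counting error only. Alternatives used DESeq2 1.42.0, limma 3.58.1 voom, 3 other scalings, 2 other filters, edgeR without robust estimation, the library number as covariate, and each library left out. The procedure was tested on simulated counts. Named genes are the members past the threshold, 15 core subunits, and the changed genes among the 48 others. The members, lists, ratios and motifs were chosen with earlier results of these data known. The gene that fell among the 48 others is not reported here.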

Additional observations from a re-analysis of the deposited data

How the results depend on the processing

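The number of genes called ranged from 1307 to 1835 around 1675 over the 17 alternatives. The balance of higher over lower calls was 948 to 727, and 829 to 901 with library totals alone. The number of members higher was 5 or 6 under each change of scaling, tool, filter or covariate and 3 to 6 when each library was left out in turn, and 0 members fell in any alternative. Among the 48 further genes, 5 to 8 were higher when a library was left out, and 0 to 1 lower. Members near 0 changed sign: Timm10 was at -0.0018 with upper-quartile scaling, -0.024 with library totals alone, -0.0053 with no filter and between -0.065 and 0.078 as libraries were left out. With a library left out, signs also turned in Lonp1 (-0.061 to 0.017), Samm50 (-0.032 to 0.11), Timm29 (-0.056 to 0.021), Timm50 (-0.12 to 0.021), Timm9 (-0.28 to 0.061), Tomm34 (-0.17 to 0.054) and Tomm5 (-0.16 to 0.27). The cause was not tested. The difference in the mitochondrially encoded share ran from -0.067 to -0.025 percentage points. No paired analysis was possible because the replicate numbers are in accession order and mark no shared animal, litter or batch. Depth limits Timm23, Pam16 and Tomm5, at 43, 75 and 92 reads in all.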

Other observations

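All 8 libraries carried reads of the Y-linked gene Ddx3y (161.1 ± 16.6 CPM in knockouts and 161.1 ± 11.7 CPM in controls; SD, n = 4 each) and 2 reads of Xist in all, which bears on the X-linked member Timm17b. Of 96 groups of 4 values examined for a sample far from the others, 0 passed Dixon's 95% critical value. These groups covered the members, the further genes that were called, the 4 stress factors, Gpcpd1 and the mitochondrially encoded share, and no other genes. Hscb, a co-chaperone of iron-sulfur cluster delivery, had the largest log2 fold change of the 48 further genes, 0.84 (SE 0.29), and was not examined in this way. Its levels were 4.82, 2.67, 5.02 and 4.91 CPM in knockouts 1 to 4, against 3.45, 2.03, 2.15 and 2.10 CPM in controls 1 to 4. Knockout 2 lay among the controls and control 1 above the other controls, and Hscb did not pass the threshold (edgeR adjusted p = 0.0525).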
